A study of Mus musculus with 12 samples.

Results

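The genes described here handle iron and heme, and they comprise 10 of the 46983 genes listed in each of the deposited tables: Tfrc, Slc11a2, Fth1, Ftl1, Slc40a1, Ireb2, Aco1, Alas1, Fech and Hmox1. They were chosen by symbol because Tfrc and Alas1 were higher in cardiomyocytes of Wls fl/fl hearts, so the values of that contrast are given as a description. Counts past a threshold there stand beside the share over all genes, and nothing is read from them. All 10 were listed in both tables, each symbol matched 1 annotated gene, and all 10 passed the filters on low values in every comparison.

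RNA was sequenced from hearts of BL6/C57 mice split into cardiomyocytes (CM) and the remaining cells (NonCM), with 3 libraries in each of 4 groups. Control hearts were labelled MCM/+ and the other hearts MCM/+ with Wls fl/fl. Wls fl/fl stands for floxed alleles of Wls, the carrier that escorts Wnt proteins to the cell surface. MCM is the common abbreviation of MerCreMer, a Cre recombinase fused to estrogen receptor domains that becomes active with tamoxifen, and the promoter that drives it is not given in the sources used here. Every group, controls included, had 3 tamoxifen doses on postnatal days 1 to 3, an infarction on postnatal day 2 and collection 2 weeks after surgery, while the sample labels call the cells adult. No group here was labelled as floxed Wls without MCM, and none was without infarction or tamoxifen. The design text states 3 hearts per condition.

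Cells take up iron mainly as transferrin bound to the transferrin receptor, store it in ferritin, and export it through ferroportin. Iron regulatory proteins hold these steps in balance by binding a short hairpin, the iron-responsive element, in the messenger RNA: binding in the 5′ UTR blocks translation, and binding in the 3′ UTR of the transferrin receptor transcript protects it from decay. Heme is built partly in mitochondria from glycine and succinyl-CoA and ends with the insertion of iron, and heart muscle uses iron for myoglobin, cytochromes and iron-sulfur proteins.

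Matches to a strict form of the iron-responsive element were read from the GENCODE M21 transcripts on GRCm38 (mm10). The search was for the loop CAGTGN, an unpaired C upstream of it, and 5 bases between the C and the loop that pair with the 5 bases after the loop (Watson-Crick or G-U), on the transcript strand within annotated UTRs. Each match is shown 5′ to 3′ as 27 bases in transcript direction, with the bulged C and the loop in capitals. The 4 of the 3′ UTR of Tfrc lie close together on the + strand, and the others are single matches in 5′ UTRs.
Tfrc, chr16:32631220-32631246 (+): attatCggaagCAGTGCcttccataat
Tfrc, chr16:32631599-32631625 (+): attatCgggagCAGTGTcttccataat
Tfrc, chr16:32631664-32631690 (+): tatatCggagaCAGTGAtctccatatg
Tfrc, chr16:32631711-32631737 (+): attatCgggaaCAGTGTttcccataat
Fth1, chr19:9982733-9982759 (+): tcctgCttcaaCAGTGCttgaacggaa
Ftl1, chr7:45459780-45459806 (-): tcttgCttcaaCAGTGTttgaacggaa
Slc40a1, chr1:45925466-45925492 (-): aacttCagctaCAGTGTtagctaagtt
Alas2, chrX:150547459-150547485 (+): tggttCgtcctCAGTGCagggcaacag
Tfrc, Fth1, Ftl1 and Slc40a1 thus held a match, as did Alas2, the erythroid partner of Alas1, which is shown for contrast. Alas1, Hmox1, Slc11a2, Ireb2 and Aco1 had no match to these letters in their annotated UTRs. Matches in Fech were not recorded, so whether its UTRs hold the element was not tested. Over all genes with a UTR of 27 bases or more, 30 of 20200 (0.149%) held a match in the 5′ UTR and 128 of 20884 (0.613%) in the 3′ UTR. A match describes sequence only, and protein binding was not measured.

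Depth ranged from 1160146 to 10281214 reads per library, and the shallowest library was NonCM control replicate 1, where 1 read equals 5.54 normalized counts (reads divided by the size factor of the library). In CM, Wls had 243, 201 and 210 normalized counts in control, against 91.6, 57.3 and 93.9 in Wls fl/fl, a log2 difference of -1.45, and in NonCM the difference was -0.28 (limma, adjusted p = 0.0831). Esr1, the estrogen receptor gene whose domains are part of MerCreMer, had 14.3, 33.3 and 19.5 normalized counts in the CM control libraries and 1686, 1298 and 1596 in the CM Wls fl/fl libraries. Wls loss and this difference between libraries that are all labelled MCM/+ cannot be told apart in any genotype comparison below. In every group, replicate 3 lay close to a weighted mean of replicates 1 and 2: its mean squared residual was 0.998 to 1.04 times the counting variance, against 1.81 to 2.46 between replicates 1 and 2. Results that rest on it are therefore given with and without it. All 16 cardiomyocyte markers were detected in every group and took 10.3 to 11.3% of reads in CM and 5.82 to 7.46% in NonCM, so the NonCM libraries also hold cardiomyocyte RNA.

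In cardiomyocytes of Wls fl/fl hearts, the transferrin receptor Tfrc and the heme synthesis enzyme Alas1 were higher than in control, by 1.55-fold and 1.27-fold, and the storage, export, regulatory and heme breakdown genes differed little. Tfrc, which brings transferrin-bound iron into the cell, had 3547, 2858 and 3191 normalized counts in control, against 4940, 4906 and 4978 in Wls fl/fl. The 3 Wls fl/fl libraries were closely alike and all above the highest control library, while the controls were spread more widely. The log2 difference was 0.63 (SE 0.07), taken, like all genotype differences here, on normalized count + 1. Slc11a2 encodes DMT1, which moves iron out of the endosome, and had 177, 120 and 146 normalized counts in control, against 160, 174 and 165 in Wls fl/fl. The first control library was the highest of the 6, so the groups overlapped, with a log2 difference of 0.19 (SE 0.13).

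Ferritin stores iron in a shell of heavy and light chains. Fth1, the heavy chain that oxidizes iron, had 6365, 6687 and 6631 normalized counts in control CM, against 6105, 6970 and 6595 in Wls fl/fl CM. Ftl1, the light chain, had 316, 344 and 360 in control, against 341, 316 and 348 in Wls fl/fl. Both chains overlapped fully between genotypes, with log2 differences of -0.00 (SE 0.05) and -0.02 (SE 0.07). Slc40a1, the iron exporter ferroportin, had 153, 146 and 135 normalized counts in control, against 140, 140 and 129 in Wls fl/fl. Its groups overlapped, and its log2 difference was -0.09 (SE 0.09).

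The regulators bind the hairpins shown above: Ireb2 encodes IRP2, and Aco1 encodes IRP1, which is an aconitase when it holds an iron-sulfur cluster. Ireb2 had 558, 596 and 575 normalized counts in control CM, against 636, 579 and 573 in Wls fl/fl CM. Aco1 had 307, 342 and 317 in control, against 310, 331 and 324 in Wls fl/fl. Neither separated the genotypes, with log2 differences of 0.05 (SE 0.06) for Ireb2 and 0.00 (SE 0.07) for Aco1.

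Alas1, the first and usually rate-limiting enzyme of heme synthesis outside red cells, had 1027, 1025 and 1050 normalized counts in control CM, against 1289, 1374 and 1294 in Wls fl/fl CM. The genotypes did not overlap and the spread within each was small, with a log2 difference of 0.35 (SE 0.05). Fech, the last enzyme, which inserts iron into protoporphyrin, had 581, 621 and 570 normalized counts in control, against 579, 637 and 597 in Wls fl/fl, and its groups overlapped (log2 difference 0.03, SE 0.06). Hmox1, the inducible heme oxygenase that breaks heme down and frees its iron, was scarce in CM. It had 13.3, 24.7 and 25.3 normalized counts in control, against 18.8, 16.7 and 17.5 in Wls fl/fl, from 13 to 27 reads per library, and its difference of -0.19 (SE 0.28) was within its error.

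By limma, 2 of the 10 genes, Tfrc and Alas1, were past an adjusted p of 0.05 in CM, where 0.0921% of 11944 genes were, and the same 2 were those whose genotypes did not overlap, as for 15% of all genes. Since this contrast chose the genes, nothing is read from these counts. With any 1 CM library left out, the log2 difference of Tfrc stayed between 0.55 and 0.71 and that of Alas1 between 0.32 and 0.37. Without replicate 3 of both genotypes the differences were 0.63 and 0.37, and neither gene was past the threshold, as was the case for all but 2 genes of the whole table. Alas1 also fell short of the threshold when CM control replicate 3 or CM Wls fl/fl replicate 3 alone was left out, with Tfrc still past it. Cardiomyocyte markers took 10.5 to 10.7% of reads in control CM, against 10.3 to 11.3% in Wls fl/fl CM, and the 9 listed markers of erythroid cells, which also make much Tfrc, took 0.00194 to 0.00574% and 0.0017 to 0.00938%. Erythroid Epb42 had no read in either CM group. Their part in the result was not tested. In bulk RNA, fewer cells of a type and less RNA per cell cannot be told apart.

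**Figure D1:**
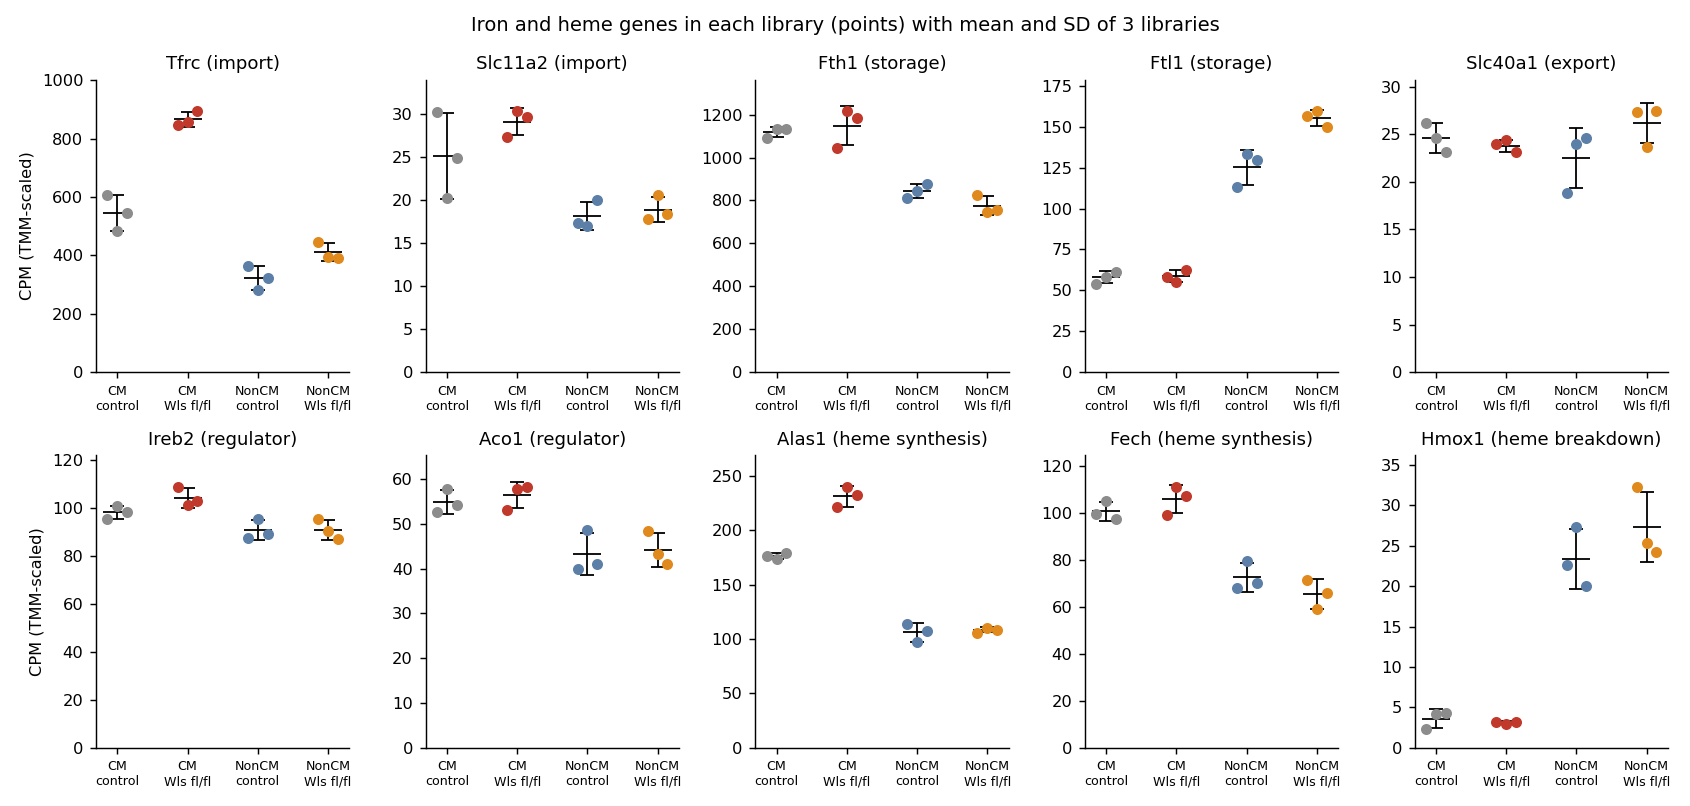
Level of each of the 10 genes in CPM (reads relative to the TMM-scaled read total of the library, vertical axes from 0) in the 4 groups of fraction and genotype. Points are libraries, and the bar and whiskers are the mean and SD of 3. Tfrc and Alas1 of CM Wls fl/fl lie above all other groups, and Ftl1 and Hmox1 lie higher in both NonCM groups.

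The wider iron and heme pathway was taken from 7 lists with 88 symbols, of which 83 were listed and 68 could be tested in CM. Of these, 45 were higher and 23 lower in Wls fl/fl CM, with a median log2 difference of 0.05 against 0.00 over all genes, and only Tfrc and Alas1 were past the threshold. The genotypes of 11 of the 68, Tfrc and Alas1 included, did not overlap. This is near the 15% of all genes, so the count is no result about the pathway. Among other pathway genes with non-overlapping genotypes and a mean of 50 or more, the 5 with the largest log2 differences were all higher in Wls fl/fl. They were Hmox2, the constitutive heme oxygenase (0.21), Tmem14c, which carries a heme precursor into mitochondria (0.21), Bola3, an iron-sulfur cluster factor (0.20), Hfe2, the BMP co-receptor hemojuvelin (0.20), and the heme-binding protein Pgrmc1 (0.15). Hmox2 had 157, 179 and 182 normalized counts in control CM, against 200, 214 and 188 in Wls fl/fl CM. Over all genes, 5985 of 11944 were higher and 1044 had an unadjusted p under 0.05. Of the 13 tested heme synthesis genes 11 were higher and 2 lower, with a median of 0.08 and only Alas1 past the threshold, and of the 21 tested iron-sulfur cluster genes 16 were higher and 5 lower, with a median of 0.10 and 0 past it (1 with an unadjusted p under 0.05). Storage genes leaned the other way, with 2 of 7 higher and a median of -0.02, as did export and hepcidin control genes, with 2 of 6 higher and a median of -0.13. The import list had 5 of 8 higher (median 0.10) and the heme breakdown and transport list 7 of 10 (median 0.06).

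In the NonCM fraction, whose values were not the reason given for choosing the genes, the light ferritin chain Ftl1 rose by 1.23-fold in Wls fl/fl hearts, and no other of the 10 passed the test. Ftl1 had 832, 959 and 938 normalized counts in control, against 1116, 1142 and 1087 in Wls fl/fl. Every Wls fl/fl library was above every control library, with a log2 difference of 0.30 (SE 0.06, limma adjusted p = 0.0356). This is 1 of 10 genes, where 4.51% of 13271 genes were called, 2.47% higher and 2.03% lower. The Ftl1 call ended when NonCM control replicate 3 or any 1 of the 3 Wls fl/fl libraries was left out (adjusted p = 0.099 to 0.176, difference 0.28 to 0.32), and its difference was 0.34 (adjusted p = 0.448) when replicate 3 was left out of both genotypes, where limma called no gene and 1242 had an unadjusted p under 0.05. Ftl2-ps, a near copy, held 173 reads in all against 9717 for Ftl1.

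Tfrc in NonCM had 2677, 2013 and 2338 normalized counts in control, against 3175, 2820 and 2839 in Wls fl/fl, so that the genotypes did not overlap. Its log2 difference was 0.34 (SE 0.10), with an adjusted p of 0.0855 by limma, 0.016 by edgeR and 0.011 by DESeq2, and of 0.00237 in the authors' deposited table. The shallow NonCM control replicate 1 was the control library nearest to the Wls fl/fl group, and without it the difference was 0.44 (limma adjusted p = 0.000548). Limma did not call Tfrc with any other library left out, nor without replicate 3 of both genotypes. Slc11a2 had 127, 123 and 145 normalized counts in control, against 127, 147 and 133 in Wls fl/fl, which overlapped (log2 difference 0.04, SE 0.11, adjusted p = 0.871).

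The heavy ferritin chain did not pass the test in NonCM. Fth1 had 5965, 6088 and 6333 normalized counts in control, against 5890, 5347 and 5461 in Wls fl/fl. The lowest control library stood just above the highest Wls fl/fl library, and the log2 difference of -0.14 (SE 0.05) had an adjusted p of 0.172. Tfrc, Ftl1 and Fth1 were the 3 of 10 genes whose genotypes did not overlap in NonCM, where 26.5% of all genes did not.

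Ferroportin, the regulators and the heme enzymes overlapped between genotypes in NonCM. Slc40a1 had 139, 173 and 178 normalized counts in control, against 195, 170 and 199 in Wls fl/fl, a log2 difference of 0.21 (SE 0.12, adjusted p = 0.389). Alas1 had 837, 700 and 773 in control, against 754, 790 and 786 in Wls fl/fl, a difference of 0.02 (SE 0.07, adjusted p = 0.929). The controls of Alas1 enclosed all 3 Wls fl/fl libraries. Fech had 499, 574 and 507 in control, against 509, 422 and 478 in Wls fl/fl, a difference of -0.17 (SE 0.09, adjusted p = 0.336). Hmox1 had 166, 197 and 145 in control, against 230, 182 and 176 in Wls fl/fl, a difference of 0.21 (SE 0.14, adjusted p = 0.459). Only the first Wls fl/fl library of Hmox1 was above all controls. Ireb2 ranged from 643 to 687 in control, against 630 to 680 in Wls fl/fl, and Aco1 from 294 to 351 and 297 to 344, with differences of -0.01 (adjusted p = 0.918) and 0.01 (adjusted p = 0.952).

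**Figure D2:**
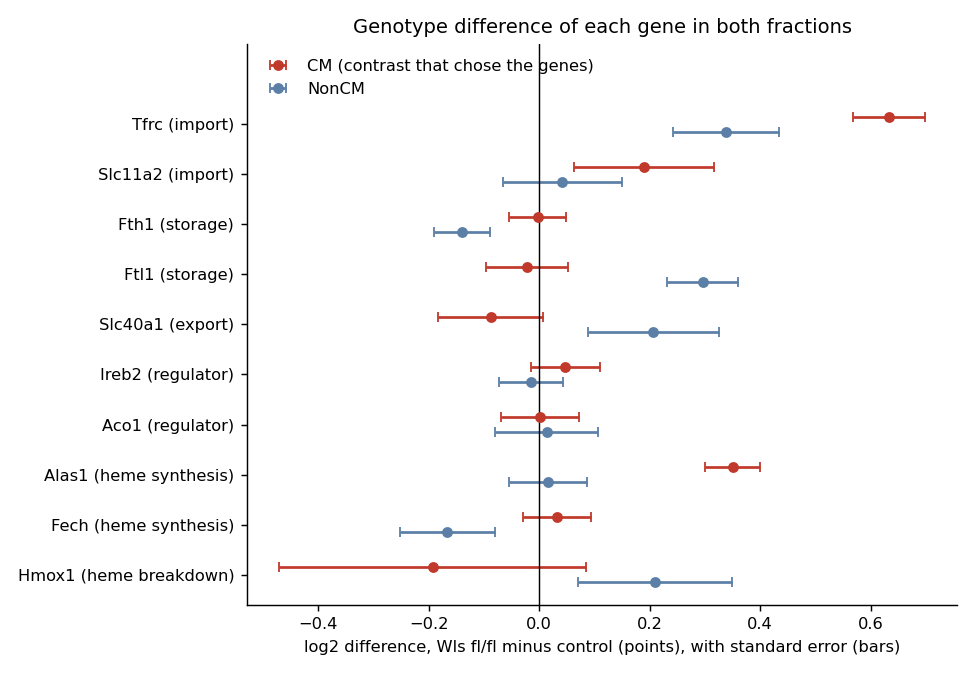
Log2 difference of each gene between Wls fl/fl and control (horizontal axis, positive where Wls fl/fl is higher), with points for the estimate and bars for its standard error, in CM (red) and NonCM (blue). Tfrc is to the right of 0 in both fractions, at 0.63 and 0.34, Alas1 in CM alone is at 0.35 against 0.02 in NonCM, and Ftl1 is at 0.30 in NonCM against -0.02 in CM.

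Whether the genotype difference of any gene differed between the fractions was not tested, because the CM contrast chose the genes. The values stand side by side for Alas1 (0.35 in CM, 0.02 in NonCM) and Ftl1 (-0.02 and 0.30). Several cell type markers moved with genotype in NonCM: cardiomyocyte markers took 6.67 to 7.46% of reads in control, against 5.82 to 5.96% in Wls fl/fl, fibroblast markers 1.28 to 1.34% and 1.78 to 1.88%, macrophage markers 0.144 to 0.178% and 0.205 to 0.218%, and endothelial markers 0.264 to 0.277% and 0.243 to 0.252%. Of the marker lists, limma called 13 of 16 cardiomyocyte genes and 1 of 12 endothelial genes lower, where 2.03% of all genes were. It called 8 of 12 fibroblast genes and 2 of 12 macrophage genes higher, where 2.47% of all genes were. By sign alone, all 16 cardiomyocyte and 11 endothelial genes were lower, and all 12 fibroblast and all 12 macrophage genes were higher. With the cardiomyocyte marker share of each library as a covariate, Ftl1 was at -0.03 (adjusted p = 0.9) and Tfrc at 0.95 (adjusted p = 0.000316). The shares do not overlap between the genotypes, so that genotype and share are largely the same variable in that fit, and the part of the fibroblast, macrophage and endothelial markers was not tested.

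Of 74 pathway genes tested in NonCM, 37 were higher and 37 lower in Wls fl/fl. Their median log2 difference was -0.00, against 0.02 over all genes. In either direction 14 had an unadjusted p under 0.05, where 2565 of 13271 genes did, so this count is no result about the pathway. By limma 3 rose and 0 fell, while 1 fell by edgeR and 0 by DESeq2. These 3 of 74 are near the shares over all genes, 2.47% called higher and 2.03% lower, so the count is no result about the pathway. With the cardiomyocyte marker share as a covariate 3 were called higher and 9 lower, where 566 and 1022 of all genes were. Besides Ftl1, the genes that limma called without the covariate were Lrp1 and Steap3. Lrp1 is a scavenger receptor that takes up heme bound to hemopexin, and Steap3 is the endosomal reductase that prepares iron for export by DMT1. With the covariate Steap3 was still called, while Ftl1 and Lrp1 were not. Lrp1 had 4784, 5638 and 5147 normalized counts in control, against 6209, 6713 and 6540 in Wls fl/fl, a difference of 0.32 (SE 0.06, adjusted p = 0.0264). Steap3 had 649, 531 and 597 in control, against 784, 718 and 801 in Wls fl/fl, a difference of 0.38 (SE 0.08, adjusted p = 0.0353). Both separated the genotypes in NonCM, and in CM their differences were 0.01 and -0.02. The 3 calls became 9 when control replicate 1 was left out, 7 for control replicate 2 and 2 for Wls fl/fl replicate 1. None was left on removing control replicate 3, either of Wls fl/fl replicates 2 and 3, or replicate 3 of both genotypes. In the iron import list 8 of 11 tested genes were higher in Wls fl/fl, with a median of 0.32. The genotypes of 7 did not overlap (26.5% of all genes) and 6 had an unadjusted p under 0.05 (2565 of 13271 over all genes). Limma called Steap3 alone, DESeq2 also called Tfrc and Slc39a8, and edgeR those and Steap2. The heme synthesis list had 5 of 13 genes higher and 0 called (1 with an unadjusted p under 0.05, and 0 among the calls of edgeR or DESeq2), with a median of -0.11. Of the erythroid markers, which carry Alas2, 2 of 6 tested were higher and 4 lower with 0 called (0 with an unadjusted p under 0.05), and their share was 0.0357 to 0.0695% in control, against 0.0305 to 0.0804% in Wls fl/fl.

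**Figure D3:**
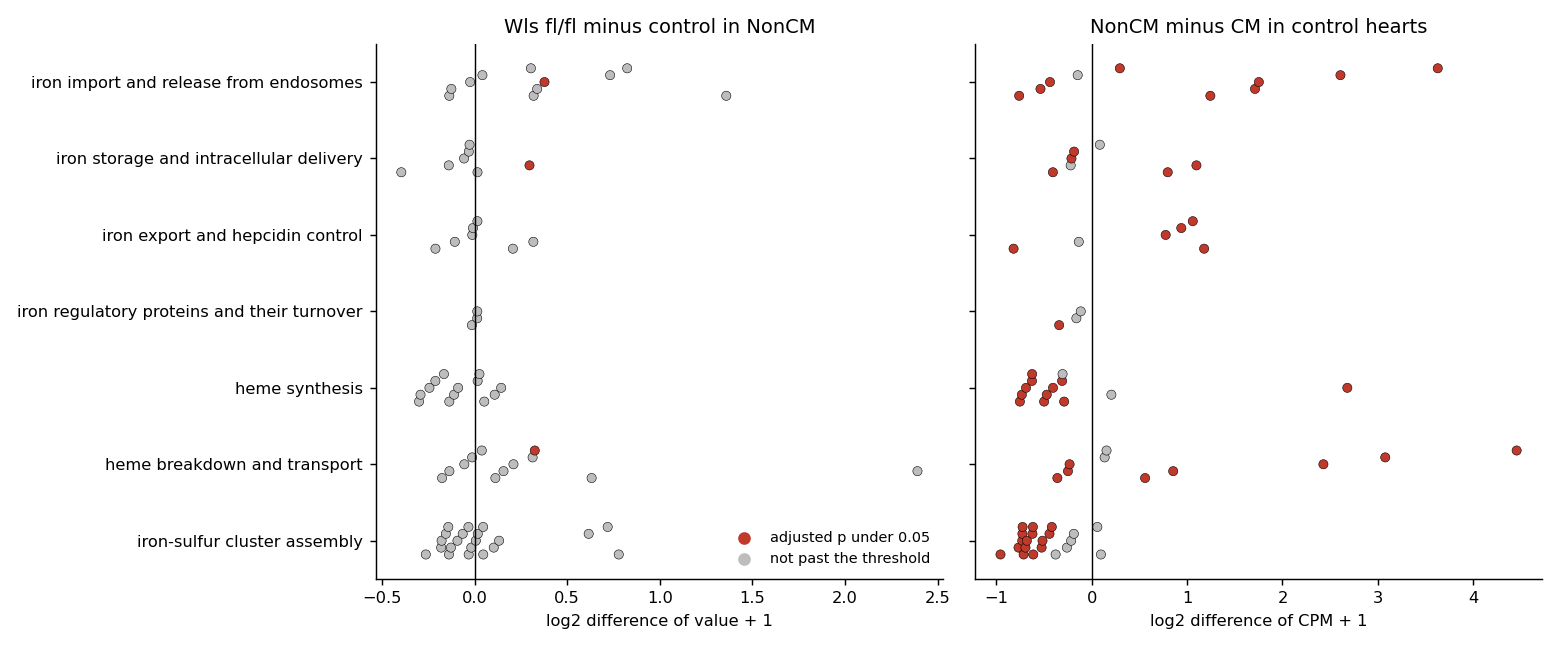
Log2 differences of the tested genes of 7 iron and heme lists, as points, for Wls fl/fl minus control in NonCM (left) and NonCM minus CM in control hearts (right), with genes past an adjusted p of 0.05 in red. On the left 3 genes are red, all to the right of 0, and on the right the heme synthesis and iron-sulfur lists lie mostly to the left of 0. Points are shifted vertically within a list only to keep them apart.

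Between the fractions the 10 genes divided into those higher in CM and those higher in NonCM. In control hearts 8 of 10 were called (56.1% of 12282 genes, 27.8% higher in NonCM and 28.3% lower): Hmox1 and Ftl1 were higher in NonCM, and Tfrc, Alas1, Fech, Slc11a2, Fth1 and Aco1 were higher in CM. This comparison used reads recovered from both tables, as CPM with TMM scaling, and limma on log2(CPM + 1). With scaling to total reads, the median of all genes moved from -0.02 to 0.21, and 49.5% of the calls over all genes being higher in NonCM became 73.2%. The directions below are therefore relative to the bulk of genes.

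Hmox1 was the gene with the largest difference of the 10. It had 2.28, 4.18 and 4.32 CPM in control CM, against 22.6, 27.3 and 20.04 CPM in control NonCM, a log2 difference of 2.43 (SE 0.18, adjusted p = 8.41e-09). Ftl1 had 54.1, 58.3 and 61.5 CPM in control CM, against 113, 133 and 130 CPM in control NonCM, a difference of 1.10 (SE 0.07, adjusted p = 2.06e-09). Both were far apart with no overlap. The other ferritin chain went the opposite way: Fth1 had 1090, 1132 and 1133 CPM in control CM, against 812, 845 and 876 CPM in control NonCM, a difference of -0.41 (SE 0.06, adjusted p = 2.16e-05).

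Tfrc had 608, 484 and 545 CPM in control CM, against 365, 279 and 324 CPM in control NonCM, a log2 difference of -0.76 (SE 0.09, adjusted p = 1.8e-06). Alas1 had 176, 174 and 179 CPM in control CM, against 114, 97.2 and 107 CPM in control NonCM, a difference of -0.73 (SE 0.06, adjusted p = 2.4e-08). The lowest CM library of each was above its highest NonCM library. The CM control libraries are also part of the contrast that chose these 2 genes. Fech differed by -0.47 (SE 0.08, adjusted p = 7.92e-05), Slc11a2 by -0.44 (SE 0.12, adjusted p = 0.00683) and Aco1 by -0.34 (SE 0.09, adjusted p = 0.00303). With scaling to total reads, Tfrc, Alas1, Fth1 and Fech were still lower in NonCM and called, at -0.52, -0.49, -0.17 and -0.23, while Slc11a2 (-0.21, adjusted p = 0.162) and Aco1 (-0.11, adjusted p = 0.25) were not.

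Ireb2 and Slc40a1 did not pass in control hearts, at -0.11 (SE 0.06, adjusted p = 0.116) and -0.13 (SE 0.11, adjusted p = 0.301), and both turned sign with total-read scaling, at 0.12 and 0.10. Slc40a1 had 26.3, 24.7 and 23.1 CPM in control CM, against 18.9, 24.0 and 24.7 CPM in control NonCM, with only the shallow NonCM library apart from the rest. Ireb2 lay between 95.6 and 100.9 CPM in control CM and between 87.5 and 95.4 CPM in control NonCM. These were the smallest differences among the 10 genes under TMM, whereas with total-read scaling that of Aco1 was smaller than that of Ireb2.

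In Wls fl/fl hearts 9 of 10 genes were called between fractions (62.7% of all genes, 30.8% higher in NonCM and 31.9% lower). Hmox1 (2.78, SE 0.18, adjusted p = 9.11e-10) and Ftl1 (1.39, SE 0.07, adjusted p = 5.9e-11) were higher in NonCM. Fech (-0.69, SE 0.08), Slc11a2 (-0.60, SE 0.12), Fth1 (-0.56, SE 0.06), Aco1 (-0.35, SE 0.09) and Ireb2 (-0.20, SE 0.06) were lower, with adjusted p between 3.55e-07 and 0.00847. Alas1 (-1.09, SE 0.06) and Tfrc (-1.08, SE 0.09) were lower as well, but they were chosen for high values in these same CM libraries, which favours that direction, so their differences are a description and their calls support nothing. Slc40a1 was at 0.13 (SE 0.11, adjusted p = 0.307). With total-read scaling, where the median of all genes was 0.27 and 72.2% of calls over all genes were higher in NonCM instead of 49.1%, 3 genes were called higher and 5 lower. Slc40a1 (0.42, adjusted p = 0.0014) joined the higher genes, Aco1 (-0.05) and Ireb2 (0.10) were no longer called, and Ireb2 turned sign. Without replicate 3 of all 4 groups 7 genes were called in each genotype, with Aco1 lost in both and Ireb2 in Wls fl/fl. Leaving out any 1 library of the contrast left the 8 calls in control hearts and the 9 in Wls fl/fl hearts in place.

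**Figure D4:**
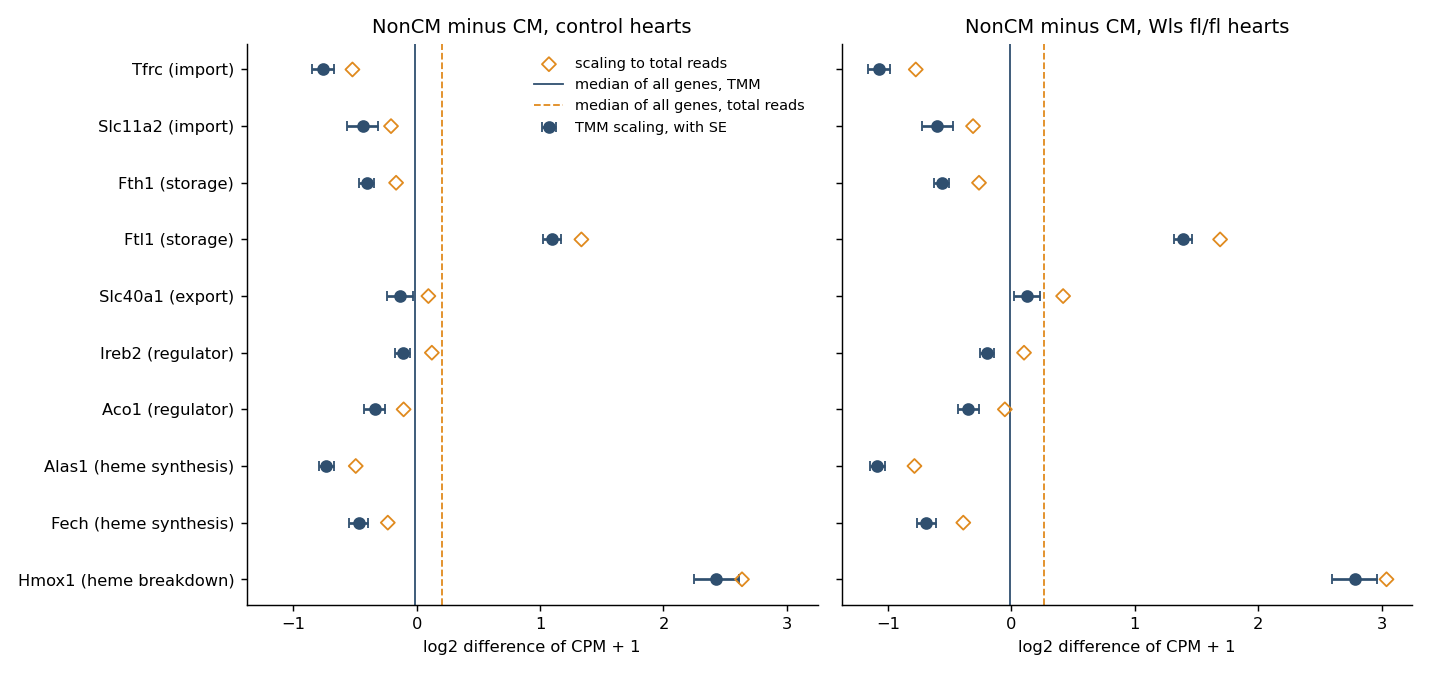
Log2 difference of each gene between NonCM and CM (horizontal axis, positive where NonCM is higher) in control hearts (left) and Wls fl/fl hearts (right). Filled points with bars are TMM-scaled estimates with their standard errors, open diamonds are scaled to total reads, and vertical lines mark the median of all genes under each scaling. Hmox1 and Ftl1 lie to the right of both lines, and Tfrc and Alas1 to the left of both, in either genotype.

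The design text says that both fractions came from each mouse, but the labels do not state which libraries share a heart, and the fit treats them as separate. Beside these differences, the marker lists differed in the same fit of control hearts: all 16 cardiomyocyte genes were lower in NonCM (median -0.86), and all 12 fibroblast and all 12 macrophage genes were higher (medians 2.88 and 4.12). All 5 tested erythroid genes were higher too (median 3.23), with Alas2 at 2.68. The vascular lists differed little: of 12 endothelial genes 9 were higher and 3 lower (median 0.11). Of 9 tested smooth muscle and pericyte genes 4 were higher and 5 lower (median -0.07).

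The pathway lists divided by function in control hearts. Counts here are of genes called by limma, where 27.8% of all genes were called higher in NonCM and 28.3% lower. Of 13 heme synthesis genes 10 were called lower in NonCM and 1 higher, with a median of -0.47, and with total-read scaling 7 were called lower and 2 higher. The gene called higher under TMM was Alas2 (2.68, adjusted p = 3.6e-05), and among the lower ones was Clpx (-0.75), the mitochondrial unfoldase that acts on Alas1. Of 21 iron-sulfur cluster genes 15 were called lower and 0 higher (median -0.61), with 19 below 0 and 2 above, and with total-read scaling 10 were called lower and 0 higher. Hspa9, the mitochondrial chaperone that hands clusters on, was at -0.77 (adjusted p = 9.95e-09), and Bola1 at -0.95 (adjusted p = 0.0385). The Bola1 value rests on the shallow NonCM control replicate 1, where it had 1 read: without that library it was at -0.28 (adjusted p = 0.163), and it was also not called by edgeR (adjusted p = 0.101), by DESeq2 (adjusted p = 0.125), under total-read scaling (adjusted p = 0.0855), or when the first or the third CM control library was left out (adjusted p = 0.0768, 0.114). All pathway lists together had 18 of 70 genes called higher and 36 lower, and 20 called higher and 21 lower of 71 with total-read scaling. Without replicate 3 of all 4 groups, 17 pathway genes were called higher and 24 lower, where 2595 and 2529 of 12279 genes were.

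Import and heme uptake lists had calls in both directions. Of 10 import genes 6 were called higher in NonCM and 3 lower, led by Scara5, a receptor for ferritin (3.63, adjusted p = 8.96e-13), and Trf, transferrin itself (2.61, adjusted p = 6.24e-09). Scara5 had 953, 1348 and 1079 normalized counts in control NonCM, against 1387, 1398 and 1388 in Wls fl/fl NonCM, with an adjusted p of 0.138 between genotypes. Of 10 heme breakdown and transport genes 5 were called higher and 3 lower, led by Cd163, the macrophage receptor for hemoglobin bound to haptoglobin (4.45, adjusted p = 5.9e-14), and Lrp1 (3.08, adjusted p = 6.67e-13). With total-read scaling the 3 lower genes of that list were not called. Of 6 export and hepcidin control genes 4 were called higher, among them Hfe (1.18) and Bmp6 (1.06), and 1 lower. Of 7 storage and delivery genes 2 were called higher and 3 lower. The 2 were Ftl1 and Slc25a37, a mitochondrial iron importer (0.80), and the lower ones included the iron chaperone Pcbp2 (-0.21), which was at 0.03 with total-read scaling.

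Per length of transcript, heavy ferritin was the most abundant of the 10 genes in every group and heme oxygenase the least abundant in CM. Levels are RPKM, in which reads are scaled to the length of the principal transcript and to the read total of the library. In control CM Fth1 had 692 ± 15.8 RPKM (SD, n = 3), Tfrc 103 ± 11.5, Ftl1 55.3 ± 3.57 and Alas1 47.9 ± 0.732. Below these came Ireb2 with 15.7 ± 0.452, Fech with 14.2 ± 0.578 and Aco1 with 13.2 ± 0.683 RPKM. Slc11a2 had 7.68 ± 1.52, Slc40a1 6.76 ± 0.43 and Hmox1 2.12 ± 0.674 RPKM. In that order the libraries of Fech and Aco1 overlapped, as did those of Slc11a2 and Slc40a1, and all other neighbours were apart.

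In Wls fl/fl CM Tfrc had 159 ± 1.76 RPKM, and Alas1 at 61.0 ± 2.22 RPKM stood above Ftl1 at 54.4 ± 2.82, the reverse of their order in control CM. In NonCM the light chain came before the receptor: Ftl1 had 141 ± 6.44 RPKM in control, against 178 ± 4.12 in Wls fl/fl, and Tfrc 72.2 ± 12.5 and 92.9 ± 5.58. Fth1 had 616 ± 18.3 RPKM in control NonCM, against 575 ± 25.6 in Wls fl/fl NonCM. Hmox1 stood higher in the order, at 16.2 ± 2.3 RPKM in control NonCM, against 19.2 ± 2.78 in Wls fl/fl NonCM, where its libraries overlapped those of Ireb2, and Slc11a2 had the lowest mean, at 6.54 ± 0.6 and 6.92 ± 0.561 RPKM, although in control NonCM its libraries overlapped those of Slc40a1 (7.26 ± 0.775 RPKM). With the length of all exons of a gene in place of the principal transcript, a choice made after the data were seen, Fth1 stayed first in each group and Tfrc or Ftl1 second. The order of Alas1 and Ftl1 in Wls fl/fl CM, that of Ireb2, Fech, Aco1 and Hmox1, and that of Slc40a1 and Slc11a2 in NonCM then changed.

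**Figure D5:**
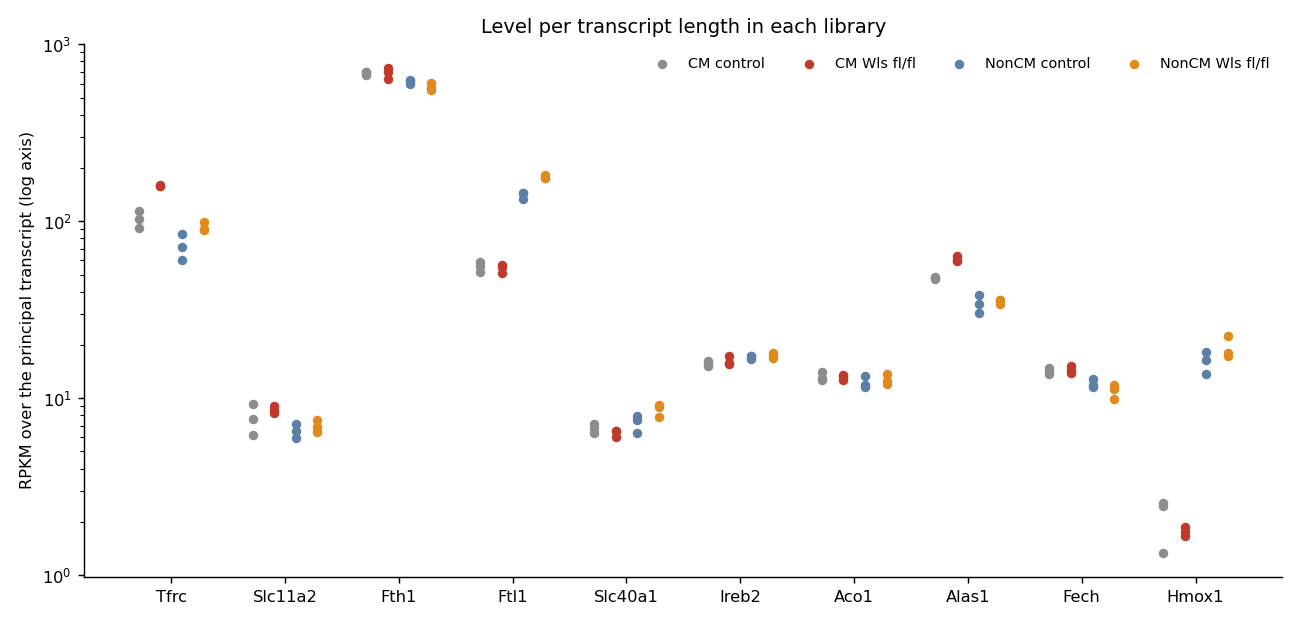
RPKM of each gene over its principal transcript (vertical log axis) in each library, with 3 points per group, coloured by fraction and genotype. Fth1 is highest in all 12 libraries, and Hmox1 is lowest in CM and among the middle genes in NonCM.

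The genes whose pattern over the 12 libraries was most like that of Tfrc, by Pearson correlation of log2(CPM + 1) among 8554 genes with a mean of 10 CPM or more, were Fam81a (0.98), Hspa4l (0.98), Mgll (0.98), Lap3 (0.97) and Egln3 (0.96). Those most like Alas1 were Fndc5 (0.99), Nnt (0.99), Plec (0.99), Trak2 (0.99) and Qrsl1 (0.99). The libraries fall into the CM and NonCM groups, which share their fraction and part of their depth, so these values describe the division between fractions as well as that between genotypes, and no p is given.

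The genes lie on 9 chromosomes of GRCm38, with Alas1 and Ireb2 on the same one. Tfrc spans chr16:32608920-32632794, Alas1 chr9:106233455-106248654, Ftl1 chr7:45457944-45459884 and Fth1 chr19:9980598-9985098, each protein-coding in the annotation. Reads were counted per gene symbol, so the values do not separate exons or UTRs. The ferritin chains have near copies in the genome, and reads shared between copies may be split or left out by the counting. The counting method is not given in the sources used here, and its bearing on the ferritin levels was not tested. Of the near copies looked up, which were the Fthl17 genes, Ftmt and Ftl2-ps, only Ftl2-ps had more than 2 reads in all. Copies under other symbols were not looked up.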

How the data were processed

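The members and gene lists were chosen with earlier results of these data known. STAR, DESeq2 and the build mm10 are named in the submitters' processing notes, and the sources used here do not give the annotation, counting tool or use of strand. Each fraction has 1 deposited table with a signal per gene and library, which is a read count that the authors divided by a size factor. Per the file headers they also hold the authors' log2 fold changes, a test statistic (score) and the authors' p-values.

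Dividing each library by its step gave whole reads for 100% of values (tolerance 0.01 reads). A DESeq2 fit of these gave log2 fold changes within 4.8e-08 of the deposited ones. Genotypes were compared within a fraction, because the tables were scaled apart, with limma 3.58.1 (R 4.3.3, trend) on log2(value + 1) for genes with a mean of 10 or more. Fractions were compared in 1 limma fit of all 12 libraries on log2(CPM + 1), TMM-scaled, mean CPM of 2 or more. P-values were adjusted by Benjamini-Hochberg over all genes tested, threshold 0.05, and measure the spread between libraries. With 3 libraries a group no exact permutation p under 0.1 is possible. On recovered reads edgeR 4.0.16 called 12 genes in CM and 1446 in NonCM, against 11 and 598 by limma, and DESeq2 1.42.0 called 18 and 670. The scripts were tested on simulated data.

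Of all symbols, 93.7% matched 1 gene of GENCODE M21. Depth was 1160146 to 10281214 reads per library. Genes named besides the 10 were pathway genes called in NonCM; the 5 largest non-overlapping in CM (mean of 50 or more); per list, the 2 largest called between fractions in control; the 5 genes most correlated with Tfrc and with Alas1; and Wls, Esr1, Alas2 and the globins. Epb42, Pdk1, Slc39a8 and Steap2 were named after their values were seen. Replicates were numbered in accession order.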

Additional observations from a re-analysis of the deposited data

How the results depend on the processing

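In CM, the number of the 10 genes past the threshold, and of pathway genes, ranged from 1 to 2 with 1 library left out and was 0 without replicate 3 of both genotypes. Scaling, filters, pseudocounts, edgeR and DESeq2 left both at 2. In NonCM, 1 of the 10 genes was called, 2 by edgeR and 2 by DESeq2, 0 to 2 with 1 library left out and 0 without replicate 3. The 3 called pathway genes became 8 (edgeR), 5 (DESeq2), 12 (cardiomyocyte marker share as covariate, 3 higher and 9 lower), 0 to 9 with 1 library left out and 0 without replicate 3. Over all genes in NonCM, 598 calls became 1446 (edgeR), 1588 (covariate), 77 to 1634 with 1 library left out, and 0 without replicate 3. The causes of these changes were not tested, and the fits with libraries left out also hold fewer libraries. In NonCM the sign turned for Aco1, at -0.0213 (edgeR), -0.0133 (DESeq2) and -0.26 (covariate), and under the covariate for Ftl1 (-0.0313), Slc40a1 (-0.25) and Slc11a2 (-0.0301), with none of these past the threshold. With 1 library left out, Aco1 ranged from -0.0474 to 0.0965, Alas1 from -0.0508 to 0.0779, Slc11a2 from -0.0179 to 0.112 and Ireb2 from -0.0454 to 0.0158. Between fractions, scaling to total reads turned Slc40a1 (0.10) and Ireb2 (0.12) in control and Ireb2 (0.10) in Wls fl/fl. No library number of the titles is shared between the genotypes. Between fractions the library numbers of the titles differ by a constant and then match in genotype, which was seen after the data were examined. Libraries so matched deviated together with r = 0.14 to 0.32 over 8554 genes in control and 0.04 to 0.15 in Wls fl/fl, and each of the 12 correlated best with its match, as a hint from the data. A replicate block by that match left 8 and 9 of the 10 genes called and changed no call among them. In the shallowest library 1 read equals 5.54 normalized counts, which limits Hmox1 and other scarce genes there.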

Other observations

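Tfrc and Hmox1 are also known targets of transcription factors, so 2 further lists were summarised. Of 14 tested genes of the hypoxia-inducible factor list, 8 were higher and 6 lower in Wls fl/fl CM with 0 called. An unadjusted p under 0.05 was found for 3 of them, and for 1044 of 11944 genes over all. In NonCM 4 were higher and 10 lower, with a median of -0.08 against 0.02 over all genes, and 1 was called: Pdk1, a kinase that restrains pyruvate oxidation, named after its value was seen (-0.38, SE 0.07, limma adjusted p = 0.0219). Of the Nrf2 list, 14 genes were tested in CM with 10 higher, and 15 in NonCM with 8 higher, and 0 were called in either. In CM 0 of them had an unadjusted p under 0.05, and in NonCM 3 had, where 2565 of 13271 genes did. Between fractions in control hearts 4 hypoxia genes were called higher and 7 lower in NonCM, and 5 Nrf2 genes were called higher and 7 lower (27.8 and 28.3% of all genes), which became 5 and 7, and 5 and 2, with total-read scaling. Hemoglobin transcripts varied widely within groups: Hbb-bs had 1580, 3255 and 2247 normalized counts in control NonCM and 3622, 1375 and 2189 in Wls fl/fl NonCM, and Alas2 followed with 83.2, 201 and 139, and 247, 98.5 and 129. The control NonCM library with the most Hbb-bs had the least Tfrc of its group (2013), and the Wls fl/fl NonCM library with the most Hbb-bs had the most Tfrc (3175).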
